A study of Drosophila melanogaster with 12 samples.

Results

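The step from pupa to adult was followed in female Drosophila melanogaster by comparing 2 arrays of female adults with 2 arrays of female pupae, which are 4 of the 12 arrays of the study. All arrays that carry these labels were used, and every probe set other than the manufacturer's controls was tested. The labels name no transgene or treatment, and the animals came from the outbred laboratory population LHm and were reared at 25 °C. The labels give 10 individuals per replicate and sampling of the 3 stages in parallel from vials started at different times. Female and male third-instar larvae and male pupae and adults were sampled in the same way, each with 2 arrays, and the male step serves below only to show where the female step differs. The age and mating status of the adults and the hour of pupal development are not stated in the labels, so the step joins 1 unstated pupal time to 1 unstated adult age.

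Metamorphosis replaces most larval tissues. During pupal life the epidermis secretes the adult cuticle, the imaginal discs finish their shape, neurons and flight muscle differentiate, and pulses of the steroid hormone ecdysone order these events through nuclear receptors. After eclosion the female feeds, the gut secretes digestive enzymes, the fat body makes yolk proteins, and the ovaries fill with dividing germline cells, follicle cells that secrete the eggshell, and eggs loaded with maternal RNA.

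Expression was measured with Affymetrix Drosophila Genome 2.0 arrays, and all levels below are the deposited log2 values, so that 1 unit is a 2-fold difference. Levels of different genes cannot be set against each other on this scale, and low levels are close to array background. The 2 pupal arrays correlated at 0.9938 and the 2 adult arrays at 0.9958 over all probe sets. Medians were 6.44 and 6.42 on the pupal arrays and 6.27 on both adult arrays. The 9 hybridisation control probe sets were lower on the adult arrays, with a median difference of -0.482 and a range of -0.912 to -0.01, and the part of this in the results was not tested. Of 38 testis genes the median level was between 4.83 and 5.06 on the 4 female arrays, against medians of 10.82 and 11.08 over the male pupal and adult arrays. For 28 genes of the male accessory gland and ejaculatory bulb it was between 4.07 and 4.27 on the female arrays and 13.26 in male adults. The highest value of a single testis gene on a female array was 10.43, and of a single accessory gland gene 7.26.

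Differences were tested with limma over all 18769 probe sets, with Benjamini-Hochberg adjustment and calls at an adjusted p under 0.05. Adjusted p-values below come from that fit, a value after ± is the standard error of a log2 difference (n = 2 arrays per group), and "rose" and "fell" mean called higher or lower in adults. Nothing beyond the replicate labels says how the pools of 10 animals were kept apart, so the p-values measure only the spread between replicate arrays. That spread was estimated for each probe set jointly over all 6 groups and 12 arrays. A standard error can therefore reflect arrays of larvae or males. In the female step 10207 probe sets were called, 54.4% of those tested, and 5109 of them were higher and 5098 lower (27.2% each). Reduced to 1 probe set per gene, 4268 of 11982 genes rose (35.6%) and 3573 fell (29.8%), with a median over all genes of 0.04. Changes of at least 2-fold were called for 2350 genes upward (19.6%) and 1974 downward (16.5%). At this 2-fold minimum 2721 probe sets were higher (14.5%) and 2477 lower (13.2%). Changes of at least 4-fold were called for 959 genes upward (8.0%) and 1052 downward (8.78%), and changes of at least 16-fold for 297 genes upward (2.48%) and 290 downward (2.42%). Both arrays of one stage lay above both arrays of the other for 73.1% of probe sets. The even split depended on the scaling: with each array centred on its own median, the median over all probe sets moved from -0.04 to 0.11, and 6134 probe sets were higher and 3902 lower. Counts within gene lists below are to be read against 35.6% and 29.8%. For the male step the shares over all genes were 23.5% higher and 40.8% lower. For the difference between the steps, the female step was called higher in 34.2% of genes and lower in 30.6%. In whole animals, fewer cells of a type, less RNA per cell and more RNA from other tissues cannot be told apart.

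**Figure D1:**
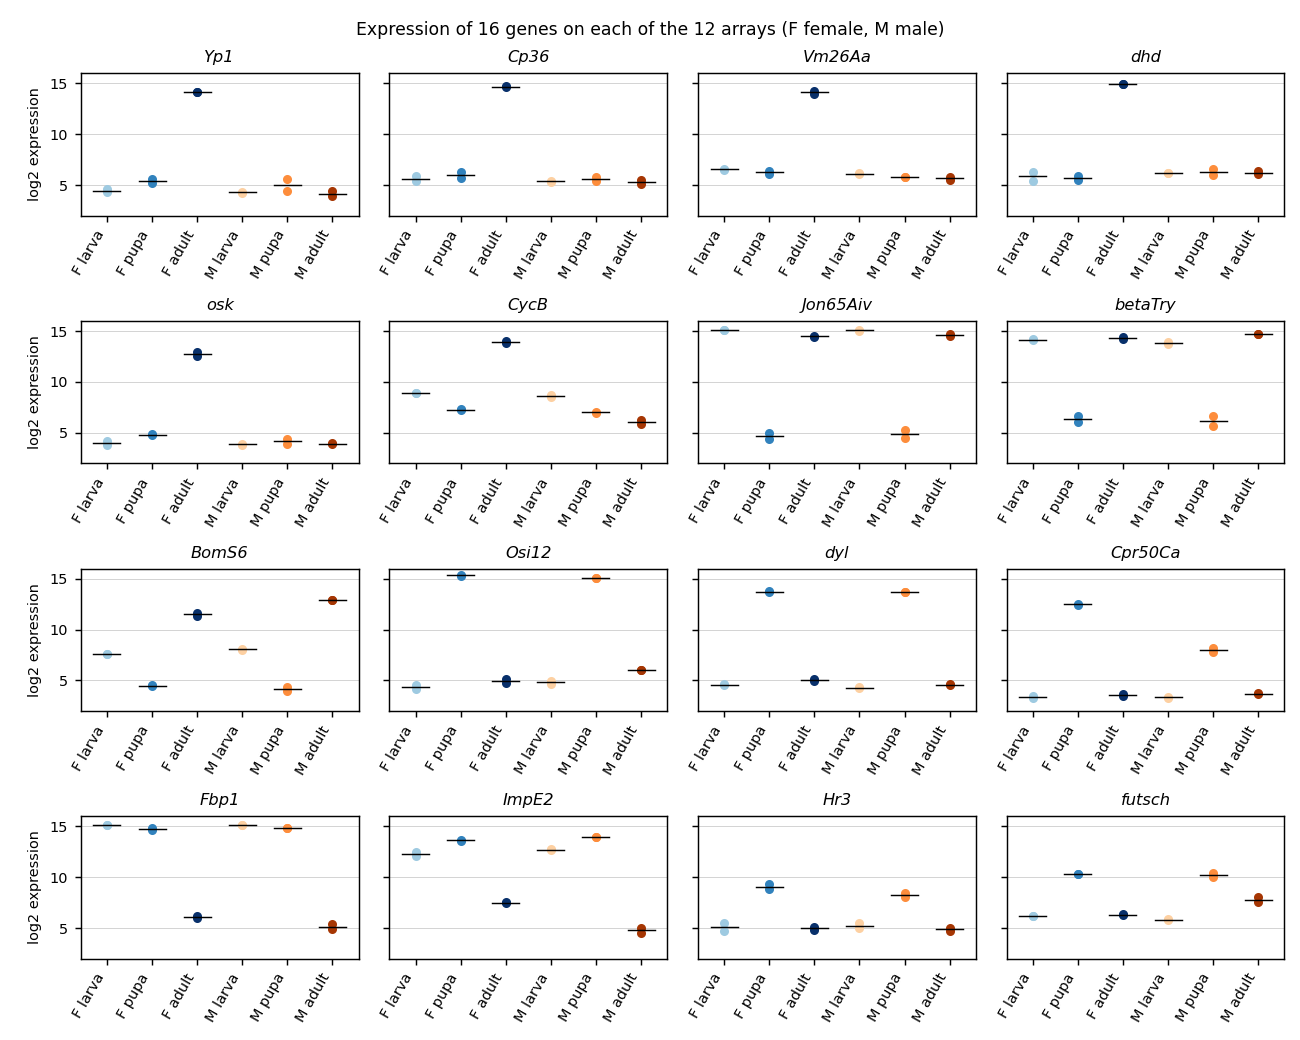
Log2 expression on each of the 12 arrays for 16 genes, with points for single arrays and a line at the mean of each pair (F female, M male). In females the first 9 genes stand higher on both adult arrays than on both pupal arrays, and the last 7 stand lower.

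The genes with the highest gains were mainly genes known from the gut and the ovary. Jon99Fi, a serine protease gene of the Jonah family expressed in the gut, read 2.68 and 2.87 on the pupal arrays and 12.84 and 13.16 on the adult arrays. Its difference of 10.22 ± 0.19 (adjusted p = 3.03e-11) was the highest fitted among the 11982 genes. No fold is given for it, since the pupal values were close to the lowest level in the table, 2.47. Jon65Aiv of the same family went from 4.39 and 4.98 to 14.44 and 14.55, a difference of 9.81 ± 0.23 (adjusted p = 1.14e-10). In both genes the stages lay far apart and the paired arrays close together. The third was dhd, which encodes the thioredoxin of the egg, with 5.85 and 5.53 in pupae and 14.97 and 14.90 in adults, a difference of 9.24 ± 0.25 (adjusted p = 3.09e-10). The other members of the leading 15 were the protease genes yip7 (9.04 ± 0.20) and Jon25Biii (8.48 ± 0.19), the yolk protein genes Yp1 and Yp2, the chorion genes Cp36, Cp19 and Cp15, the meiotic regulator mtrm, and Muc12Ea (8.09 ± 0.14), CG4991 (8.82 ± 0.20), CG16826 (8.69 ± 0.18) and CG12374 (8.62 ± 0.16).

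Yolk proteins are made by the fat body and the follicle cells and taken up by the oocyte through the receptor yl. All 4 measured genes of this list rose. Yp1 read 5.19 and 5.58 on the pupal arrays and 14.12 and 14.16 on the adult arrays (difference 8.76 ± 0.32, adjusted p = 2.51e-09). Yp2 read 6.23 and 6.08 and then 14.73 and 14.92, a difference of 8.67 ± 0.16 (adjusted p = 3.44e-11). Yp3 started from a higher pupal level of 8.54 and 8.47 and reached 14.80 and 14.84, a difference of 6.31 ± 0.17, and it was also the member that rose in males (2.04 ± 0.17, adjusted p = 1.78e-06). The receptor gene yl rose by 5.90 ± 0.09, from 5.38 and 5.27 to 11.21 and 11.24. In no case did the pupal and adult arrays overlap, as was so for 73.1% of all probe sets.

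The eggshell is laid down by follicle cells in 2 phases, first the vitelline membrane and then the chorion. Of 10 measured chorion genes 9 rose and 1 fell, with a median difference of 7.28. Median levels were 6.30 and 6.02 on the pupal arrays and 13.19 and 13.28 on the adult arrays. Cp36, a major chorion protein gene of the X chromosome cluster, went from 6.26 and 5.69 to 14.62 and 14.71 (difference 8.69 ± 0.22, adjusted p = 1.68e-10). From the cluster on chromosome 3, Cp19 rose by 8.37 ± 0.13, Cp15 by 8.13 ± 0.20, Cp16 by 7.30 ± 0.14 and Cp18 by 7.26 ± 0.13. The exception was Pxd, a peroxidase gene placed in the list for its known part in chorion hardening, which read 9.38 and 9.58 in pupae and 4.29 and 4.53 in adults and fell by 5.07 (difference -5.07 ± 0.18, adjusted p = 1.88e-09). Its level in female larvae was 11.72 and 11.15, so the gene was high at both stages before the adult.

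Among 10 vitelline membrane genes 9 rose and 1 fell, and the median difference was 4.45. Vm26Aa, a structural component, read 6.43 and 6.10 on the pupal arrays and 13.93 and 14.30 on the adult arrays, a difference of 7.85 ± 0.16 (adjusted p = 4.52e-11). Vm32E (7.35 ± 0.16) and Vm34Ca (7.07 ± 0.18) had differences of similar size. The protease gene ndl, which acts in dorsoventral patterning of the embryo, rose by 4.57 ± 0.20, and fs(1)N, needed for an intact vitelline membrane, by 5.43 ± 0.19. The member that fell was tsl, a cue for the ends of the embryo, from 9.42 and 9.48 to 8.76 and 8.79 (difference -0.67 ± 0.10, adjusted p = 0.000153).

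Maternal genes for the body axes and the germ plasm were split. Of 20 measured members 11 rose, 5 fell and 4 were not called, with a median of 1.49, beside 35.6% higher and 29.8% lower over all genes. The gene osk, which organises the germ plasm at the posterior pole of the oocyte, read 4.92 and 4.73 in pupae and 12.94 and 12.54 in adults (difference 7.91 ± 0.19, adjusted p = 1.17e-10). Other probe sets of osk rose by 5.57 and 9.32. BicC (7.66 ± 0.15), a translational regulator of the oocyte, swa (6.70 ± 0.13) and exu (5.77 ± 0.12), which act in localising the bcd transcript, orb (6.46 ± 0.21), a translational activator of the germline, and smg (5.05 ± 0.11), a repressor of maternal RNAs in the embryo, rose as well. At the other end stood pum, an RNA-binding repressor also used in neurons, with 10.55 and 10.63 and then 7.48 and 7.81, a difference of -2.94 ± 0.15 (adjusted p = 3.29e-08). Another probe set of pum rose by 1.99, so the 2 regions of this gene that were probed moved in opposite directions. The actin nucleator gene capu, which orders the oocyte cytoskeleton, read 8.58 and 8.35 and 8.42 and 8.40 and was not called (adjusted p = 0.773). With probe sets of a mean level under 5 left out, the median of the remaining members was 0.45.

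Germline piRNAs silence transposons, and their genes rose as a whole list. All 22 measured genes were called higher, with a median of 3.69 and a range of 0.41 to 5.21. The Tudor domain gene tej, which acts in piRNA amplification, went from 4.82 and 4.86 to 10.02 and 10.10, a difference of 5.21 ± 0.12 (adjusted p = 9.84e-11). The gene rhi, which encodes the chromatin protein that marks piRNA clusters, rose by 4.90 ± 0.17, and its partner del by 4.43 ± 0.11. AGO3, an Argonaute protein of the amplification cycle, rose by 4.41 ± 0.12, from 5.36 and 5.37 to 9.79 and 9.76. The smallest gain was that of papi, a mitochondrial Tudor protein gene, at 0.41 ± 0.09 (adjusted p = 0.00274), and it was not called after quantile normalization (0.24, adjusted p = 0.059).

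Regulators of egg meiosis and egg activation followed. Of 19 measured genes 16 rose, none was called lower and 3 were not called, with a median of 3.20. The gene mtrm, which encodes an inhibitor of Polo kinase in the oocyte, read 5.74 and 5.59 in pupae and 14.01 and 13.94 in adults (difference 8.32 ± 0.09, adjusted p = 6.31e-12). The kinase subunit genes gnu (7.05 ± 0.19) and plu (5.40 ± 0.24), needed for the cell cycles after fertilisation, the maternal tubulin gene alphaTub67C (6.88 ± 0.16) and wisp (6.31 ± 0.14), a cytoplasmic poly(A) polymerase of egg activation, rose too. The 3 members not called included sub, a spindle kinesin (5.35 and 4.67 and 4.93 and 5.06), and ord, a cohesion protein (5.26 and 4.93 and 5.32 and 4.32). Without the first adult array ord was called lower (-0.78, adjusted p = 0.0169).

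Genes of DNA replication rose in full: all 35 measured members were called higher, with a median of 3.13 and a range of 0.85 to 5.94. Median levels were 7.23 and 7.35 on the pupal arrays and 10.64 and 10.55 on the adult arrays, and the larval median was 7.92. Orc1, a subunit of the origin recognition complex, went from 4.69 and 4.74 to 10.68 and 10.64, a difference of 5.94 ± 0.12 (adjusted p = 4.02e-11). Genes of the replicative helicase followed with Mcm5 at 5.01 ± 0.13 and Mcm2 at 4.46 ± 0.14. RnrL, the large subunit of ribonucleotide reductase, rose by 4.45 ± 0.10, the helicase loader gene Cdc6 by 4.16 ± 0.15, and PCNA, the polymerase clamp, by 4.02 ± 0.11. Psf1, a subunit of the GINS complex, rose least, by 0.85 ± 0.13.

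Genes of mitosis moved in the same way, with 32 of 32 called higher, a median of 3.47 and a range of 0.55 to 7.14. The securin gene pim read 4.89 and 4.84 on the pupal arrays and 12.13 and 11.88 on the adult arrays, a difference of 7.14 ± 0.11 (adjusted p = 1.7e-11). Cyclin genes CycB (7.19 and 7.31, then 13.98 and 13.87, difference 6.67 ± 0.13) and CycB3 (5.86 ± 0.12) and the cyclin-dependent kinase subunit gene Cks30A (6.07 ± 0.16) followed, as did borr (4.62 ± 0.11), a subunit of the chromosomal passenger complex. Other probe sets of fzy, an activator of the anaphase-promoting complex, did not follow the one that stands for the gene (4.96 ± 0.10): one fell by 0.58 and one, at -0.13, was not called. The smallest rise was in fzr (0.55 ± 0.12), which encodes the activator used in cells that leave the mitotic cycle. In males 24 of these 32 genes fell and none was called higher, beside 40.8% lower and 23.5% higher over all genes. The step differed between the sexes in all 32, as it did in all 35 replication genes, beside 34.2% of genes whose step was called higher in females.

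**Figure D2:**
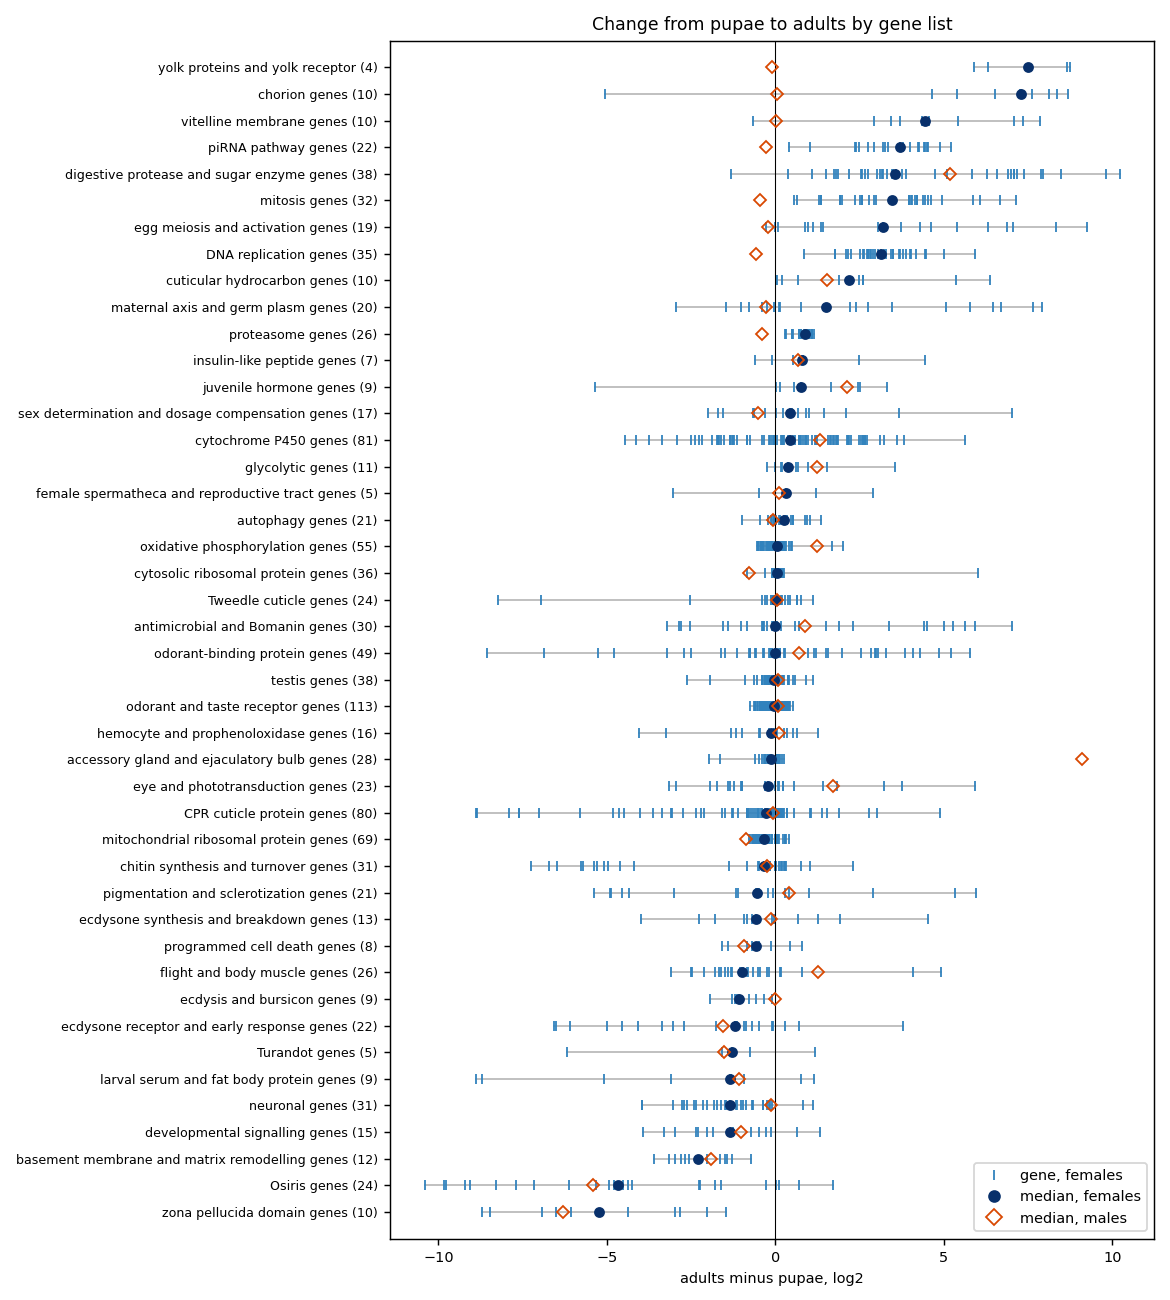
Adults minus pupae on the log2 scale for the members of 44 gene lists (number measured in parentheses), with a tick for each gene in females, a filled circle at the female median and an open diamond at the male median. Female medians run from 7.49 for the yolk list to -5.23 for the zona pellucida domain list.

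The adult gut list rose almost whole. Of 38 measured digestive protease and sugar enzyme genes 36 rose, 1 fell and 1 was not called, with a median of 3.54. Their median level was 10.79 in female larvae, 6.05 and 5.87 on the pupal arrays and 10.04 and 10.25 on the adult arrays, so the pupa was the low stage. The trypsin gene betaTry read 14.08 and 14.19 in larvae, 6.08 and 6.68 in pupae and 14.22 and 14.39 in adults (adults minus pupae 7.93 ± 0.28, adjusted p = 1.71e-09). Another trypsin gene, alphaTry, rose by 7.87 ± 0.14, and the Jonah gene Jon65Aiii by 7.38 ± 0.21. Mal-A5, a maltase gene, fell from 12.53 and 12.51 to 11.10 and 11.29 (difference -1.32 ± 0.12, adjusted p = 3.95e-06), and Amyrel, an amylase-related gene, was not called (0.36 ± 0.29, adjusted p = 0.346). The proteases of one family are similar in sequence, and a probe set may read more than one of them.

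Genes that make cuticular hydrocarbons, the waxes and pheromones of the adult surface, rose in 7 of 10 cases with none called lower, and the median was 2.18. Fad2, a desaturase needed for the dienes typical of females, read 4.84 and 5.49 on the pupal arrays and 11.68 and 11.42 on the adult arrays, a difference of 6.38 ± 0.19 (adjusted p = 6.25e-10). The elongase gene eloF rose from 5.38 and 5.59 to 10.84 and 10.87 (difference 5.37 ± 0.13). In males the same values were 0.19 ± 0.19 for Fad2 and 0.29 ± 0.13 for eloF, and the difference between the steps was called for both (6.20 ± 0.27, adjusted p = 3.01e-08, and 5.08 ± 0.19, adjusted p = 8.24e-09). Desat1, the main desaturase, rose by 2.47 ± 0.14, and Cyp4g1, the enzyme of the last step in oenocytes, by 2.59 ± 0.10. FASN3, a fatty acid synthase gene, was called at 0.68 ± 0.21 but not without the first pupal array (0.40, adjusted p = 0.153) or without the second adult array (0.41, adjusted p = 0.165). Elo68alpha, an elongase known from the male genital tract, was not called in females (0.20 ± 0.20, adjusted p = 0.447).

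Cytochrome P450 genes, which serve hormone synthesis and detoxification, moved both ways: 43 of 81 rose and 25 fell, with a median of 0.42. Over all genes 35.6% rose and 29.8% fell. Cyp6a19 rose most, from 5.64 and 5.66 to 11.41 and 11.17 (difference 5.64 ± 0.10, adjusted p = 3.11e-11). Cyp313a1 rose by 3.81 ± 0.12 and Cyp6a21 by 3.62 ± 0.11. Cyp303a1, known from sense organ development, fell from 8.48 and 9.56 to 4.60 and 4.54 (difference -4.45 ± 0.29), followed by Cyp301a1, a cuticle gene (-4.13 ± 0.10), and Cyp9c1 (-3.75 ± 0.12).

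Of 30 antimicrobial, Bomanin and recognition genes 12 rose and 7 fell, beside 35.6% and 29.8% of all genes, and the median was -0.01. The lower count was 4 without the first pupal array and 4 without the first adult array. The Bomanins, secreted peptides of the Toll pathway, led the rise. BomS6 read 4.48 and 4.50 in pupae and 11.38 and 11.62 in adults, a difference of 7.01 ± 0.12 (adjusted p = 2.54e-11). BomS2 (5.94 ± 0.27), BomBc2 (5.63 ± 0.27), BomT2 (5.27 ± 0.43), BomT3 (5.0 ± 0.11) and BomS4 (4.50 ± 0.27) followed. The Turandot genes, humoral stress factors, went the other way in 4 of 5 cases: TotB fell from 11.39 and 10.21 to 4.41 and 4.80 (difference -6.20 ± 0.55), while TotC rose by 1.18 ± 0.26. TotE, at -0.75 ± 0.24, was called in the full fit but under none of the fits without the first pupal array or without either adult array (adjusted p 0.178, 0.0556 and 0.094).

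Of the blood cell genes, 3 of 16 rose (5 after array-median centring) and 6 fell, and the median was -0.12. NimC2, of the Nimrod family of blood cell receptors, fell from 9.42 and 9.32 to 5.23 and 5.40 (difference -4.05 ± 0.17), and Hml, a clotting factor and marker of plasmatocytes, rose by 1.27 ± 0.14. Pxn, which encodes a peroxidase of the matrix, fell by 3.25 (-3.25 ± 0.15), while its other probe set stayed at -0.03 and was not called.

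The falls were led by genes of the forming cuticle. Osiris genes encode membrane proteins of cells that secrete cuticle, and 19 of 24 measured members fell, 2 rose and 3 were not called, with a median of -4.66. Their median levels were 5.34 in female larvae, 10.27 and 10.38 on the pupal arrays and 5.69 and 5.53 on the adult arrays. Osi12 read 15.31 and 15.33 in pupae and 4.75 and 5.10 in adults, a difference of -10.40 ± 0.15 (adjusted p = 1.61e-11), and this was the deepest fitted fall among the 11982 genes. The pupal values were close to the highest level in the table, 15.61, and the adult values low, so neither a fold nor the order among the deepest falls is firm. Osi4 (-9.83 ± 0.16), Osi9 (-9.79 ± 0.22), Osi3 (-9.20 ± 0.10), Osi1 (-9.07 ± 0.18) and Osi22 (-8.30 ± 0.15) followed. Osi15 rose, from 4.64 and 4.74 to 6.70 and 6.12 (difference 1.72 ± 0.21, adjusted p = 3.12e-05). The count of 2 rises was 1 without the first adult array.

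Zona pellucida domain proteins build the apical matrix that shapes cuticle, bristles and wing hairs. All 10 measured genes fell, with a median of -5.23 and a range of -8.70 to -1.46. Pupal medians were 11.78 and 11.75, and adult medians 6.04 and 6.29. The gene dyl read 13.70 and 13.78 and then 5.16 and 4.91, a difference of -8.70 ± 0.11 (adjusted p = 9.69e-12), and its paralog dy went from 13.39 and 13.29 to 4.70 and 5.03 (difference -8.47 ± 0.15). Falls of neo (-6.92 ± 0.19), mey (-6.51 ± 0.25), tyn (-6.08 ± 0.19) and cyr (-4.38 ± 0.12) were followed by those of nompA (-2.97 ± 0.11), which links sense organ dendrites to the cuticle, and dpy (-2.84 ± 0.26), a giant protein that anchors epidermis. Of the 2 other probe sets of pio (-1.46 ± 0.09), one fell by 0.43 (-0.43) and one, at -0.20, was not called. Another probe set of nompA fell by much less than the one that stands for the gene (-0.43).

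Other genes among the 15 deepest falls included the uncharacterised CG31606 (14.81 and 14.77 in pupae and 4.63 and 4.19 in adults, difference -10.38 ± 0.16), CG13023 (-9.77 ± 0.18) and CG13720 (-9.67 ± 0.46), and St2, a sulfotransferase gene (-8.97 ± 0.27). CG42331 fell by 8.93 (-8.93 ± 0.13), but a second probe set of it did not (-0.31, not called). A second probe set of CG13023 fell by much less (-0.53).

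Structural cuticle proteins changed only in some members. Of 80 genes of the CPR family 34 fell, 8 rose and 38 were not called, with a median of -0.27. Cpr50Ca read 12.46 and 12.50 on the pupal arrays and 3.71 and 3.44 on the adult arrays, a difference of -8.90 ± 0.13 (adjusted p = 1.61e-11). Cpr76Bc (-8.85 ± 0.22), Cpr66D (-7.90 ± 0.15), Cpr66Cb (-7.61 ± 0.26), Cpr49Ah (-7.60 ± 0.15) and Cpr49Ac (-7.01 ± 0.16) completed the leading 6. Against them Cpr65Au rose from 5.65 and 5.69 to 10.62 and 10.49 (difference 4.89 ± 0.30). With each array centred on its own median 13 CPR genes were higher instead of 8.

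Apart from 3 falls, calls in the Tweedle family of cuticle proteins depended on single arrays. Of 24 genes 3 fell, none was called higher and 21 were not called, with a median of 0.01. TwdlE fell from 12.34 and 12.61 to 4.64 and 3.86 (difference -8.22 ± 0.25), TwdlT by 6.96 (-6.96 ± 0.21) and TwdlV by 2.53 (-2.53 ± 0.11). The median level of the list was 5.86 and 5.87 on the pupal arrays but 6.28 on the first adult array and 5.29 on the second. Without the first adult array 8 genes were lower, and without the second 9 were higher. For TwdlP, whose difference was nearest to zero, the adult arrays read 6.25 and 5.09.

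Genes of chitin synthesis and turnover gave 15 falls and 4 rises among 31, with a median of -0.35. The chitin synthase gene kkv read 12.52 and 12.50 in pupae and 5.82 and 5.77 in adults, a difference of -6.71 ± 0.11 (adjusted p = 1.7e-11). The chitinase genes Cht10 (-7.25 ± 0.14), Cht7 (-6.48 ± 0.16) and Cht6 (-5.76 ± 0.12) and the chitin-binding protein genes obst-B (-5.71 ± 0.13) and obst-A (-5.38 ± 0.13) fell with it. Idgf1, an imaginal disc growth factor without chitinase activity, rose by 2.29 ± 0.12. The count of 4 rises was 2 without the second pupal array and 2 without the second adult array.

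In the pigmentation and sclerotization list 13 of 21 genes fell and 4 rose, with a median of -0.54. The laccase gene stw, which hardens cuticle, went from 12.40 and 12.53 to 7.97 and 7.87 (difference -4.55 ± 0.18, adjusted p = 4.28e-09). Its fall was accompanied by those of yellow-d2 (-5.37 ± 0.18), yellow-f (-4.92 ± 0.17), which is known to act in melanin formation, and yellow-h (-4.87 ± 0.22). Opposite to them, yellow-g rose from 5.08 and 4.28 to 10.18 and 11.09 (difference 5.96 ± 0.30) and yellow-g2 by 5.33 ± 0.29, both members of the family known from the follicle cells of the ovary.

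**Figure D3:**
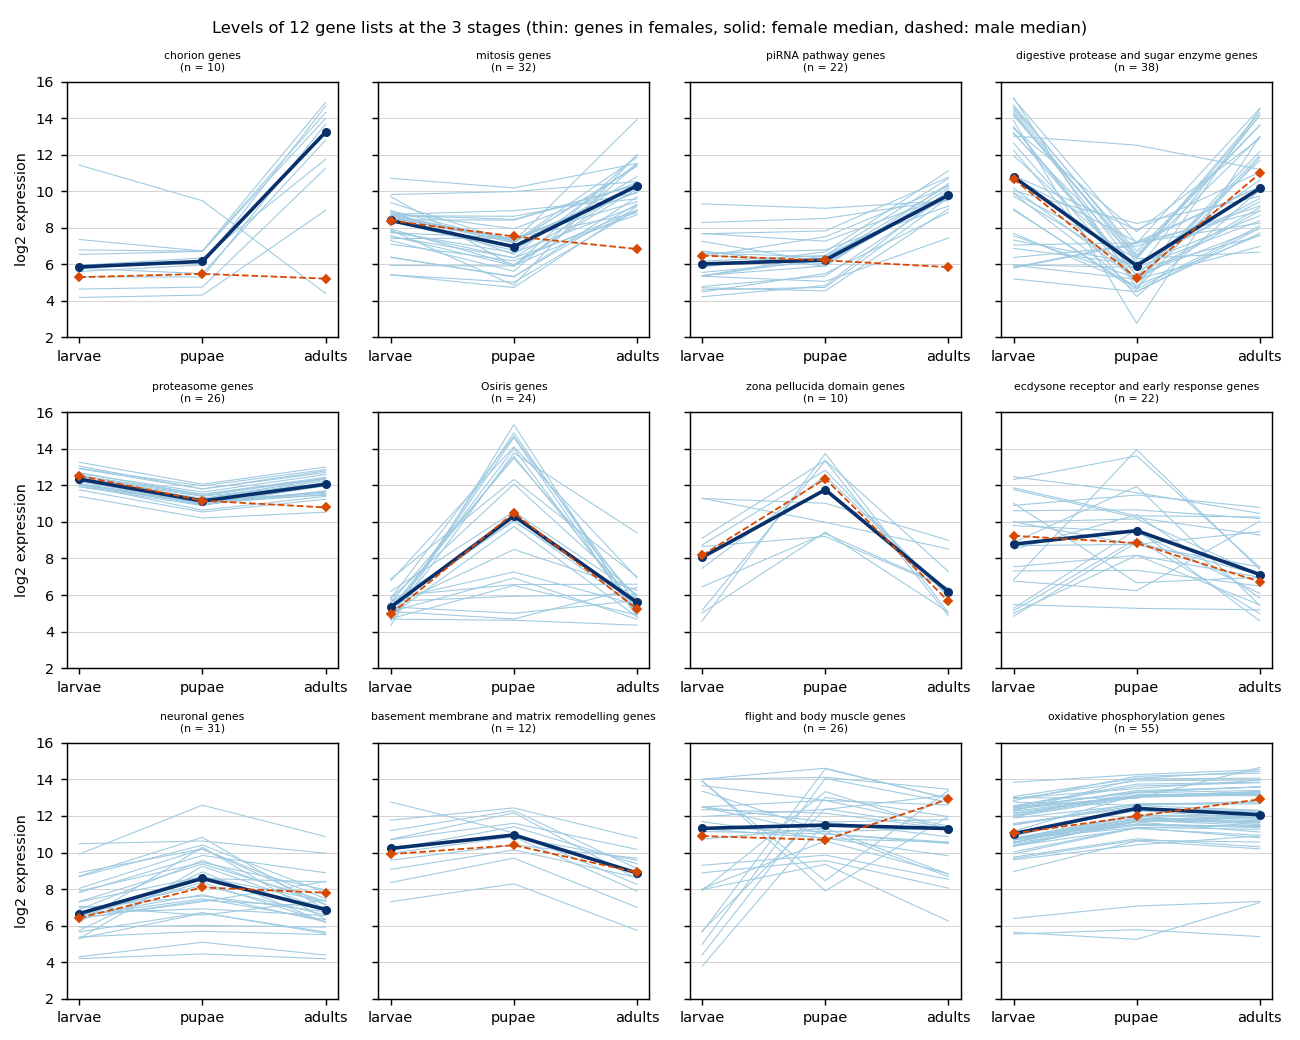
Log2 levels of 12 gene lists in larvae, pupae and adults, with thin lines for single genes in females (means of 2 arrays), a solid line for the female median and a dashed line for the male median. In females the chorion, mitosis, piRNA and proteasome medians are higher in adults than in pupae, and the Osiris and zona pellucida medians peak in pupae at 10.32 and 11.76.

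Ecdysone signalling genes stood lower in adults. Of 22 receptor and early response genes 17 fell, 2 rose and 3 were not called, with a median of -1.20. Hr3, a nuclear receptor of the ecdysone cascade, read 8.79 and 9.34 on the pupal arrays and 4.81 and 5.15 on the adult arrays (difference -4.08 ± 0.28, adjusted p = 3.69e-07). Hr4 fell from 9.32 and 9.86 to 4.42 and 4.74 (difference -5.01 ± 0.47), and Eip78C, another nuclear receptor, by 4.55 (-4.55 ± 0.54). The imaginal disc genes ImpL1 (-6.56 ± 0.12), ImpE1 (-6.51 ± 0.18) and ImpE2 (-6.10 ± 0.17), induced by ecdysone in discs, fell further. Other probe sets fell by less, at -0.84 and -0.51 for Hr4 and at -5.26, -2.5 and -0.62 for ImpE1. The receptor gene ftz-f1, which follows the ecdysone pulse and has a maternal form, rose from 6.37 and 6.12 to 9.97 and 10.11 (difference 3.80 ± 0.16, adjusted p = 7.57e-09).

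Among 13 genes of ecdysone synthesis and breakdown 7 fell and 4 rose, with a median of -0.57. The enzyme gene spok, active in the larval prothoracic gland, fell from 7.30 and 7.28 to 3.13 and 3.48 (difference -3.99 ± 0.14), and Ptth, the brain hormone that drives that gland, by 2.27 (-2.27 ± 0.13). Its receptor gene tor, which also patterns the ends of the embryo from maternal RNA, rose by 4.52 ± 0.22, from 4.67 and 4.99 to 9.45 and 9.25. The paralog spo, an enzyme of embryo and ovary, rose by 1.92 ± 0.17, and nvd, the first enzyme of the pathway, by 1.27 ± 0.24.

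Juvenile hormone genes rose in 6 of 9 cases and fell in 1. Kr-h1, the transcription factor that this hormone induces, read 3.89 and 4.45 in pupae and 7.35 and 7.60 in adults, a difference of 3.30 ± 0.21 (adjusted p = 1.53e-07). The synthetic enzyme gene jhamt rose by 1.66 ± 0.15, while the esterase gene Jhe, which breaks the hormone down, fell from 11.13 and 10.83 to 5.48 and 5.80 (difference -5.34 ± 0.13, adjusted p = 1.45e-10). Jhedup, a duplicate of the esterase, rose by 2.51 ± 0.28. The receptor genes Met (0.02 ± 0.20) and gce (0.14 ± 0.16) were not called.

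Of 9 ecdysis and bursicon genes, which time the shedding of the old cuticle and the hardening of the new, 8 fell and none was called higher, with a median of -1.07. The bursicon receptor gene rk fell from 6.11 and 6.43 to 4.19 and 4.45 (difference -1.95 ± 0.31), and the peptide genes CCAP (-1.29 ± 0.17), Eh (-1.20 ± 0.17), Burs (-1.07 ± 0.17) and ETH (-0.79 ± 0.14) by less. CCAP-R (-0.58 ± 0.17) was not called without the first pupal array (adjusted p = 0.0928) or without the first adult array (0.0757), and Ms (-0.33 ± 0.10) not without the second pupal array (0.0758) or the first adult array (0.104). After array-median centring neither was called (0.0674 and 0.166).

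Insulin-like peptide genes, listed together with genes of their signalling such as InR and foxo, gave 5 rises and 1 fall among 7. Ilp8, a relaxin-like peptide known from growing discs and from the ovary, read 5.28 and 5.19 on the pupal arrays and 9.65 and 9.71 on the adult arrays, a difference of 4.45 ± 0.11 (adjusted p = 1.68e-10). Ilp7, made by neurons of the ventral nerve cord, rose by 2.49 ± 0.21. The receptor gene InR fell by 0.60 (-0.60 ± 0.14, adjusted p = 0.00377), and foxo, which encodes the transcription factor it restrains, rose by 0.83 ± 0.15.

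Larval fat body and serum genes fell in 7 of 9 cases and rose in 2, with a median of -1.35. Fbp1, the receptor for storage proteins, read 14.88 and 14.69 in pupae and 5.96 and 6.17 in adults (difference -8.72 ± 0.15, adjusted p = 2.52e-11). Fbp2 fell from 14.89 and 14.79 to 5.92 and 5.98 (difference -8.89 ± 0.14). The storage protein gene Lsp2 fell by 5.09 (-5.09 ± 0.29) from 15.03 and 15.03 and still read 9.37 and 10.52 on the adult arrays. Of the lipid droplet genes, Lsd-1 fell by 3.09 (-3.09 ± 0.14) and Lsd-2 rose by 1.15 ± 0.10.

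Cell death genes were lower in 5 of 8 cases and higher in 2, with a median of -0.59. The initiator caspase gene Dronc fell from 10.68 and 10.67 to 9.34 and 9.20 (difference -1.40 ± 0.16) and skl, an inducer of death, by 1.57 (-1.57 ± 0.26). The effector caspase gene Dcp-1, which also acts in the germline, rose by 0.78 ± 0.10. Dark, the adaptor of Dronc, fell by 0.85 (-0.85 ± 0.16), but its second probe set did not (0.09, not called), and grim (-0.50 ± 0.16) was not called without the first pupal or the first adult array (adjusted p 0.145 and 0.0973). Autophagy genes rose in 9 of 21 cases and fell in 2, with a median of 0.25, led by the cargo receptor gene ref(2)P (1.34 ± 0.10) and, downward, by Atg3 (-0.98 ± 0.10). That median was 0.02 after quantile normalization.

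Genes of the basement membrane and its remodelling all fell: 12 of 12, with a median of -2.29 and a range of -3.59 to -0.72. The laminin genes LanB2 (12.10 and 12.23, then 8.43 and 8.72, difference -3.59 ± 0.11), LanA (-3.17 ± 0.13) and LanB1 (-2.97 ± 0.12) fell most. The collagen IV genes Col4a1 (-1.43 ± 0.13) and vkg (-1.28 ± 0.15) fell less. For trol, the perlecan gene (-2.81 ± 0.12), 2 of 7 other probe sets fell (-1.81 and -1.24) and 5, between -0.34 and 0.11, were not called, and for Mmp2, a matrix protease gene (-2.55 ± 0.15), 1 other at -0.01 was not. Averaging all probe sets of a gene gave a list median of -1.56.

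Developmental signalling genes fell in 10 of 15 cases and rose in 2, with a median of -1.36. The Fat ligand gene ds, which orients cells in the plane of the epidermis, read 9.12 and 9.15 on the pupal arrays and 4.95 and 5.45 on the adult arrays (difference -3.94 ± 0.15, adjusted p = 3.61e-09). The ligand gene hh (-3.32 ± 0.17), its transcription factor ci (-2.29 ± 0.13), the selector gene en (-2.36 ± 0.14), the kinase gene fj (-2.97 ± 0.15) and dpp (-2.03 ± 0.16), a bone morphogenetic protein, fell too. The type I receptor gene sax rose by 1.32 ± 0.10.

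Genes of neurons fell in 24 of 31 cases and rose in 2, with a median of -1.35. Their median levels were 6.66 in female larvae, 8.67 and 8.47 on the pupal arrays and 6.75 and 6.99 on the adult arrays. The gene futsch, a microtubule protein of axons, read 10.32 and 10.27 and then 6.27 and 6.39, a difference of -3.96 ± 0.15 (adjusted p = 3.24e-09), and its 2 other probe sets (-0.14 and -0.28) were not called. The neuronal RNA-binding protein genes fne (10.96 and 10.70, then 6.72 and 7.02, difference -3.96 ± 0.14) and elav (-3.04 ± 0.20) fell, as did slo (-2.72 ± 0.15), a potassium channel gene, and Appl (-2.61 ± 0.10), the amyloid precursor homolog. For the calcium channel gene cac (-2.77 ± 0.16) a second probe set was not called (-0.02). Gad1, which makes the transmitter GABA, rose by 1.12 ± 0.12. In males 13 of these 31 genes fell and 9 rose, beside 40.8% and 23.5% of all genes. The female step was called lower than the male step in 27, beside 30.6% of all genes.

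Eye genes fell in 10 of 23 cases and rose in 6, with a median of -0.22. The arrestin genes Arr1 (5.06 and 5.29, then 11.01 and 11.22, difference 5.94 ± 0.14) and Arr2 (3.76 ± 0.18), which switch off rhodopsin, and the channel gene trpl (3.22 ± 0.15) rose. Genes of carotenoid uptake fell, namely ninaD, from 11.69 and 11.86 to 8.41 and 8.85 (difference -3.15 ± 0.30), and santa-maria (-2.94 ± 0.54). The fall of eys (-1.93 ± 0.15), which opens the space between rhabdomeres, was not seen in its 3 other probe sets (0.06 to 0.17, not called). In males 16 of the 23 eye genes rose and 1 fell, beside 23.5% and 40.8% of all genes, with a median of 1.71. The female step was called lower than the male step in 19, beside 30.6% of all genes.

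Odorant-binding protein genes, expressed in sensory hairs and elsewhere, rose in 18 of 49 cases and fell in 14, beside 35.6% and 29.8% of all genes. Obp99b fell from 15.21 and 15.13 to 6.72 and 6.49, a difference of -8.56 ± 0.10 (adjusted p = 6.61e-12), followed by Obp73a (-6.87 ± 0.27) and Obp83ef (-5.27 ± 0.22). Obp56d rose from 6.16 and 6.76 to 12.11 and 12.40 (difference 5.79 ± 0.17), with Obp57c (5.20 ± 0.15) and Obp57a (4.86 ± 0.22) next. Odorant and taste receptor genes were near the background of the arrays, with a median level between 4.33 and 4.46 on the 4 arrays. Of 113 genes 3 were called higher and 11 lower, none by 2-fold, and the counts turned to 16 and 5 after array-median centring. Each count of lower genes without 1 of the adult arrays was 7.

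Muscle genes fell in 19 of 26 cases and rose in 3, with a median of -0.99. The gene salm, which specifies the fibrillar flight muscle and also patterns discs, read 9.26 and 9.45 on the pupal arrays and 6.07 and 6.43 on the adult arrays (difference -3.10 ± 0.14, adjusted p = 8.84e-09). The myosin light chain gene Mlc2 fell from 13.39 and 13.27 to 11.31 and 11.12 (difference -2.11 ± 0.22). The troponin gene TpnC73F fell (-2.48 ± 0.10), with its other probe set not called (-0.24). Msp300, a giant nuclear anchor protein gene, fell as well (-2.51 ± 0.13), and of its 5 other probe sets 1 fell (-1.43) and 4 were not called (-0.44 to 0.19). Mf, a thick filament protein gene, rose from 8.31 and 8.61 to 13.29 and 13.49 (difference 4.93 ± 0.15) and Zasp66, of the Z disc, by 4.08 ± 0.16. In males 19 of the 26 genes rose and 3 fell, beside 23.5% and 40.8% of all genes, with a median of 1.28. The female step was called lower than the male step in all 26, beside 30.6% of all genes.

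Genes of oxidative phosphorylation were little changed on balance: 10 of 55 rose and 11 fell, with a median of 0.05. These counts depended on the scaling and on single arrays, at 24 and 5 after array-median centring, with 5 or 6 higher when any 1 of the 4 arrays was left out, and with 7 lower without the first adult array. The gene sesB, the ADP/ATP translocase, rose by 1.69 ± 0.10 (from 13.05 and 12.88 to 14.69 and 14.62), and ND-B8, a subunit of complex I, by 2.01 ± 0.16. In males 52 of the 55 rose, beside 23.5% of all genes, with a median of 1.23. The female step was called lower than the male step in 52, beside 30.6% of all genes. Glycolytic genes rose in 7 of 11 cases, with a median of 0.38, led by the hexokinase gene Hex-C (5.88 and 5.57, then 9.18 and 9.39, difference 3.56 ± 0.15) and Pfk (1.52 ± 0.14). Of the smaller rises, Tpi (0.37 ± 0.11) was not called without the first pupal or either adult array (adjusted p 0.0503 to 0.0612).

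Proteasome genes moved together by small amounts. All 26 measured subunit genes rose, with a median of 0.89 and a range of 0.29 to 1.14, and 6 passed 2-fold. Prosalpha4, of the core particle, read 10.85 and 10.94 on the pupal arrays and 12.05 and 12.01 on the adult arrays, a difference of 1.14 ± 0.10 (adjusted p = 1.97e-06). Rpn11, the deubiquitinase of the lid, rose by 1.10 ± 0.10. The smallest rise, that of the base subunit gene Rpt4 (0.29 ± 0.09), was not called without any 1 of the 4 arrays (adjusted p 0.0582 to 0.0847). In males 21 of the 26 fell, beside 40.8% of all genes. The steps differed in all 26, beside 64.8% of all genes.

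Cytosolic ribosomal protein genes were nearly level. Of 36 genes 3 rose, 1 fell and 32 were not called, and the median level was 14.48 and 14.50 on the pupal arrays and 14.52 and 14.55 on the adult arrays. RpS5b, a paralog used in the germline, stood apart with a rise from 8.14 and 8.25 to 14.19 and 14.24 (difference 6.02 ± 0.10, adjusted p = 1.83e-11). The small rises of RpL34a (0.26 ± 0.10) and RpS20 (0.24 ± 0.09) were lost without the first pupal array (adjusted p 0.219 and 0.164) or either adult array. After array-median centring 10 genes were higher. In males 32 of the 36 fell, beside 40.8% of all genes, with a median of -0.78. Of 69 mitochondrial ribosomal protein genes 47 fell and 3 rose in females, with a median of -0.34 and none reaching 2-fold. Their lower count was 24 after array-median centring, and the 3 rises were 0 without the first adult array and 1 without the first pupal array.

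Genes of sex determination and dosage compensation rose in 9 of 17 cases and fell in 6. The ovarian germline genes otu (4.91 and 4.96, then 11.99 and 11.90, difference 7.01 ± 0.14) and ovo (3.66 ± 0.14) rose most, and mof, an acetyltransferase of dosage compensation, by 2.10 ± 0.14. The sex-determining factor dsx fell from 7.45 and 7.58 to 5.48 and 5.58 (difference -1.99 ± 0.15), and fru by 1.56 (-1.56 ± 0.17), and of the 6 other probe sets of fru 4 fell (-1.13 to -0.40) and 2 were not called (-0.31 and -0.02). The master switch Sxl read 9.06 and 8.99 and 9.42 and 9.49 and rose by 0.43 ± 0.09 (adjusted p = 0.00237), while 2 other probe sets of it fell by 2.39 and 1.73 (-2.39 and -1.73). The value for Sxl therefore depended on the region probed, and it was not called after quantile normalization (0.25, adjusted p = 0.0532). The difference of tra (-0.31 ± 0.11) was not called without the second pupal or either adult array, and msl-2, the male subunit of the dosage compensation complex, fell by 0.64 (-0.64 ± 0.12). In a list of 5 genes of the spermatheca and reproductive tract, Send1, a spermathecal protease, rose by 2.89 ± 0.13 and SPR, the sex peptide receptor, by 1.22 ± 0.26, although a second probe set of SPR was not called (-0.17). Hr39, a receptor needed for spermathecal glands, read -3.04 ± 0.11 in one probe set and 1.12 in another, and 2 more were not called (0.15 and 0.40).

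The female step was then set against the male step, which shares none of its arrays. In males 2818 genes rose (23.5%) and 4892 fell (40.8%). Counted as probe sets, 3521 were higher (18.8%) and 6050 lower (32.2%), of which 1983 (10.6%) and 2382 (12.7%) passed 2-fold. Falls of at least 2-fold in males were called for 1927 genes (16.1%). The steps differed in 7762 of 11982 genes (64.8%), with the female step higher in 4098 (34.2%) and lower in 3664 (30.6%). As probe sets, 4891 were higher (26.1%) and 4783 lower (25.5%), of which 3347 (17.8%) and 2913 (15.5%) passed 2-fold. Of the 4268 genes that rose in females, 1350 (31.6%) also rose in males, 1825 (42.8%) fell and 1093 were not called. Of the 3573 that fell in females, 2139 (59.9%) fell in males, 494 (13.8%) rose and 940 were not called. In the 1825 and in the 494 genes called in opposite directions the difference between the steps was itself called. Genes with opposite changes of at least 2-fold in both sexes numbered 203 for higher in females and 70 for lower in females.

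The lists cover 1169 of the 11982 genes, and some of them changed alike in both sexes while others did not. For the digestive list 35 of 38 genes also rose in males (median 5.17), for the Osiris list 18 of 24 fell (median -5.40), and for the zona pellucida list 10 of 10 fell (median -6.31). The female step was called lower than the male step in 21 of 38 digestive genes and higher in 4, with a median difference of -0.80. It was called higher in 8 of 24 Osiris genes and lower in 5. Over all genes the female step was called higher in 34.2% and lower in 30.6%. Medians in males were -0.10 for the yolk list, 0.06 for chorion, 0.02 for vitelline membrane and -0.29 for piRNA genes, and the female step was called higher in 4 of 4, 9 of 10, 9 of 10 and 21 of 22 members. At the other pole stood the accessory gland list, which rose in 26 of 28 cases in males (median 9.10), while in females 4 of 28 fell and none was called higher. That female count was 8 without the first pupal array. Cpr50Ca was a cuticle gene whose fall differed in size, at -8.90 ± 0.13 in females and -4.28 ± 0.13 in males (difference -4.62 ± 0.19, adjusted p = 1.77e-08), with pupal levels of 12.46 and 12.50 in females and 7.82 and 8.14 in males.

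**Figure D4:**
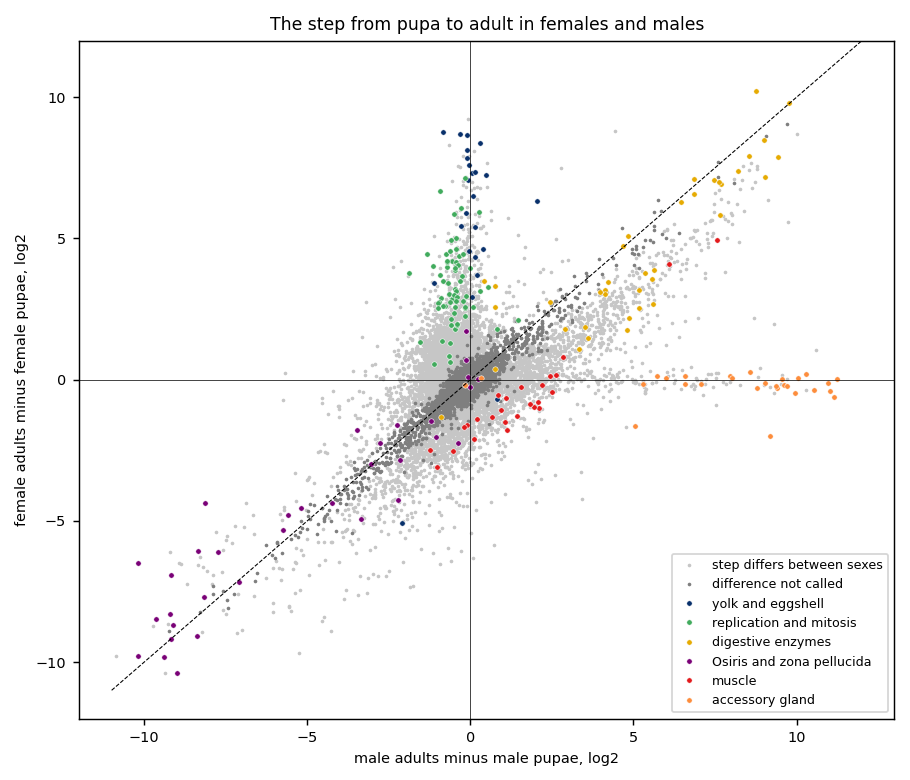
Adults minus pupae on the log2 scale for 11982 genes, females on the vertical and males on the horizontal axis, with the line of equal steps dashed, genes whose steps differed in light grey, and 6 groups of lists coloured. Most digestive genes rose and most Osiris genes fell in both sexes, with many digestive genes below the line of equal steps, while yolk, eggshell and division genes lie high at male medians between -0.59 and 0.06, and the accessory gland genes lie along the horizontal axis.

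By chromosome arm the shares of genes with a called fall of at least 2-fold were between 14.6% (X, 1873 genes) and 17.7% (3R, 2974 genes) on the 5 long arms, beside 16.5% over all genes. On the small chromosome 4 it was 46.2%, or 30 of 65 genes, and the median was -0.85. Rises of at least 2-fold were called for 7 of these 65 genes (10.8%, beside 19.6% over all genes).

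**Figure D5:**
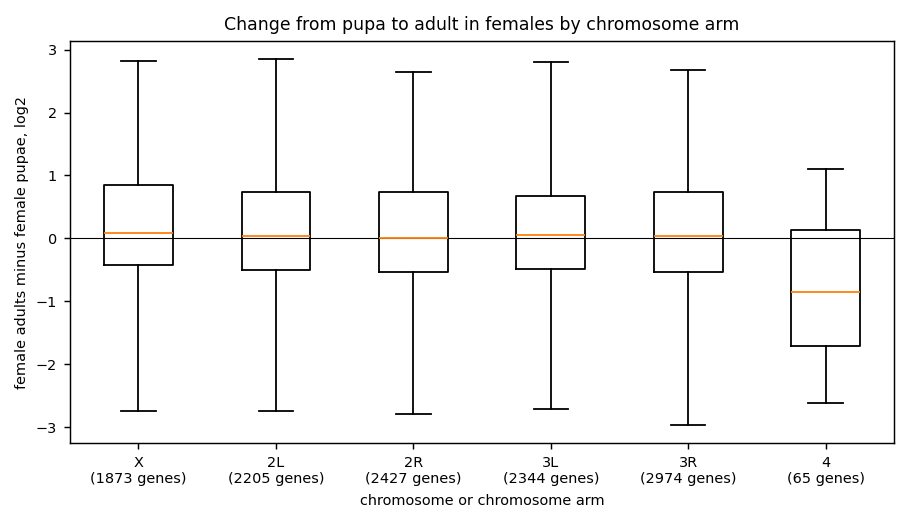
Adults minus pupae in females on the log2 scale for the genes of each chromosome or arm (boxes from the lower to the upper quartile with the median, whiskers from the 5th to the 95th percentile). Medians lie between 0.01 and 0.09 on the 5 long arms and at -0.85 on chromosome 4.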

How the data were processed

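A single table with the log2 level of every probe set on every array was deposited by the authors. The submitters' processing notes name RMA, which corrects background, normalizes and summarises probes. The version and settings of RMA are not stated in the labels. Levels of 18952 probe sets lay between 2.47 and 15.61. The 183 control probe sets were left out, and 18769 were tested. Platform annotation named 1 gene for 13647 of them, several for 402 and none for 4720. RefSeq names (assembly Release 6) held 13544 of the 13647 and changed 0 symbols. Only 1-gene probe sets were named, and each of 11982 genes was represented by its probe set of highest mean level. RefSeq also gave chromosome and gene order. Sequences are not used here.

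One limma fit (version 3.58.1, R 4.3.3) of 6 group means to 12 arrays, with 6 residual and 4.1 prior degrees of freedom from eBayes, gave the female step, the male step and their difference. Calls are two-sided at a Benjamini-Hochberg adjusted p under 0.05 over all probe sets of a comparison. The number of arrays limits the precision. In simulated data with normal noise, 200 of 18769 probe sets were changed. The script recovered 77% of those changed by 1 on the log2 scale and 99% of those changed by 2. There were 8 false calls among the unchanged probe sets. In the real female step 54.4% of probe sets were called, so these rates may not carry over.

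Named genes are the 15 largest differences in each direction with arrays of the stages apart, the 8 largest differences between the steps in each direction, and, per list, up to 6 called members with the largest difference, the smallest and the most opposite, or any member in lists of up to 12. The 44 lists, written from general knowledge, and these rules were chosen with earlier results of these data known. Lists are described by counts and medians and were not tested. The alternatives were other scalings, a filter on dim probe sets (mean log2 under 5), a 2-fold minimum, a replicate block, a trended robust eBayes, only the groups compared, 1 probe set or the mean of all probe sets per gene, and each array left out.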

Additional observations from a re-analysis of the deposited data

Results flagged for a closer look

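The step from pupa to adult differed between females and males, by the test of the difference itself, in 4891 probe sets with the female step higher and 4783 with the female step lower. All values here are the female step minus the male step on the log2 scale, and all have adjusted p under 0.05 (limma).

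The 8 largest positive differences were all of genes known from yolk, eggshell or egg, and males stayed low at both stages. Yp1 led with 9.61 (adjusted p = 4.99e-08), with male levels of 4.39 and 5.59 in pupae and 4.38 and 3.89 in adults. The egg thioredoxin gene dhd followed at 9.31, the chorion gene Cp36 at 9.0, the meiotic regulator mtrm at 8.97 and Yp2 at 8.76. Cp15 stood at 8.24, osk at 8.13 and Cp19 at 8.09, and the male adult arrays of osk read 3.96 and 3.91.

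The 8 largest negative differences were all of seminal fluid genes, which rose in males. EbpII, of the ejaculatory bulb, led with -11.75 (adjusted p = 2.85e-10). It read 3.43 and 4.04 in female pupae and 3.16 and 3.11 in female adults, against 3.19 and 2.95 and 14.25 and 14.19 in males. Ebp followed at -11.44, Acp53C14a at -11.20, Acp63F at -11.17, Acp53Ea at -11.10 and Acp53C14b at -10.90. The serpin genes Spn38F and Spn28F stood at -10.64 and -10.42. In females these 8 genes moved little by comparison: Acp63F fell by 1.98 (-1.98 ± 0.18), from 5.16 and 5.35 to 3.42 and 3.13, and Acp53C14a (0.03 ± 0.13) was not called.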

How the results depend on the processing

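In the female step the count of probe sets called higher lay between 4697 and 4855 with 1 female array left out (5109 with all), and the count called lower between 4409 and 4868 (5098 with all). In the male step the ranges were 3072 to 3166 (3521 with all) and 5341 to 5533 (6050 with all). For the difference between the steps they were 4614 to 4835 (4891 with all) and 4172 to 4803 (4783 with all). A 2-fold minimum gave 2721 higher and 2477 lower in females, 1983 and 2382 in males, and 3347 with the female step higher and 2913 with it lower. Array-median centring moved the female split to 6134 higher and 3902 lower, quantile normalization to 5192 and 4856. The labels state no pairing of samples by replicate number. Deviations of same-numbered female pupae and adults correlated at 0.00933 over all probe sets, and a shared batch was not tested. With the replicate number as a block 5047 probe sets were higher and 5038 lower. Sxl turned from 0.43 to -1.23 (adjusted p 4.87e-07) when all its probe sets were averaged. Of the named genes, calls lost in single settings numbered 14 without the first adult array, 11 without the second, 12 without the first pupal array, 8 without the second, 10 with only the groups compared, 8 after array-median centring, 4 after quantile normalization, 2 under the block, 2 with the mean of all probe sets and 1 after centring on the median deviation from probe set means. The cause of these changes was not tested. Differences from levels near the array background are compressed, which limits odorant and taste receptor, testis and accessory gland genes in females.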

Other observations

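Chromosome 4 carried 30 of 65 measured genes with a called fall of at least 2-fold in females, and 28 to 30 under the alternatives tried. Its median of -0.85 lay between -0.96 and -0.70 under them. In males the step gave 17 such genes and a median of -0.56, beside 16.1% of all genes with such a fall and a median of -0.18 over all genes. The transcript CG33978 read 11.09 and 11.20 on the female pupal arrays and 6.05 and 6.24 on the adult arrays, a difference of -5.0 ± 0.19. The yellow family gene yellow-h (-4.87 ± 0.22), the activin ligand gene Actbeta (-2.63 ± 0.13), the calcium pump gene PMCA (-2.61 ± 0.10), the eye selector gene toy (-2.60 ± 0.14) and ci (-2.29 ± 0.13) fell too. CG11360 rose by 1.70 ± 0.15, while it fell in males (-1.28 ± 0.15). These genes were chosen after their values were seen. Each value is that of 1 probe set, and the other probe sets of CG33978, PMCA, toy and CG11360 are not given here.

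Genes with large changes often lay next to each other in the RefSeq gene order of 11888 placed genes. Of 956 placed genes with a called rise of at least 4-fold, 325 (34.0%) had a neighbour of the same kind, and of 1048 with such a fall 301 (28.7%) did, beside 13.2% and 15.4% of the other placed genes that had such a neighbour. The longest run was 9 Osiris genes on 3R, from Osi24 to Osi9, with differences between -9.83 and -4.27. On the same arm a run of 8 genes from CG11878 to CG11893 rose by 2.74 to 5.50, and all 8 also rose at least 4-fold in males. On 2R a run of 6 Bomanin genes rose by 4.42 to 7.01. The chorion runs Cp7Fc, Cp36, Cp38, otu and CG33181 on X and Cp18, Cp15, Cp19 and Cp16 on 3L held 1 and 0 genes that rose so in males. Genes of one run can be alike in sequence, which the probe sets may not separate.

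Replicate arrays of a stage differed by over 1 log2 unit in 95 probe sets of female pupae and 39 of female adults. Among the pupal ones were y, a pigmentation gene, at 8.19 and 10.86, and CG15615 at 9.86 and 11.77, both higher on the second array, and Mtk, an antimicrobial peptide gene, at 10.05 and 8.19, lower on it. Among the adult ones were the cuticle genes Lcp65Ag3 at 7.05 and 4.31, TwdlB at 6.30 and 3.81 and TwdlN at 6.90 and 4.57, all higher on the first array. The storage protein gene Lsp2 was higher on the second adult array (9.37 and 10.52).

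The gene nanos, which encodes the posterior determinant of the embryo and was not matched by the list of maternal genes, read 4.84 and 5.37 in pupae and 12.98 and 13.09 in adults, a difference of 7.93 ± 0.19 (adjusted p = 1.25e-10). It was chosen after its value was seen.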
